A study of Schmidtea mediterranea with 5 samples.

Results

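The transcripts described here stood highest in planarians that had spent 8 days back in the dark after losing their pigment in light. They were chosen on the deposited scale of reads per 1000000 reads plus 1 (CPM + 1), with 3 criteria. The mean level over the 5 libraries was at least 1 CPM. The 8-day dark-return value was at least 1.5 times the value of each of the other 4 libraries. Control over light, as a ratio of CPM + 1, lay between 0.5 and 2, so on that scale none of them differed 2-fold between those 2 libraries. Of 82843 transcripts in the table, 21307 had a mean of at least 1 CPM, and 8 met all criteria.

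Schmidtea mediterranea is a freshwater flatworm that renews its tissues from dividing stem cells called neoblasts. Its brown dorsal colour comes from pigment cells beneath the epidermis, which hold porphyrin and ommochrome pigments. Porphyrins make these cells sensitive to light, the cells are lost under long exposure, and new ones arise from stem cell progeny when animals return to the dark.

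The samples were whole animals of the clonal asexual strain CIW4, per the labels starved for 1 week before they were collected. The 5 groups were untreated animals in the dark, animals after 8 days of light (the light library), and animals given 8 days of light and then 1, 2 or 8 days in the dark. The title of the untreated group calls its animals control WT (wild type), and the other titles name no genotype. Each group is 1 library, made from 3 biological replicates mixed in equal amounts before sequencing. Variation between animals can therefore not be estimated, differences between libraries are given without p-values, and none has a replicate check. A treatment text in the labels describes another experiment, with RNA interference and amputation, and was not used. The labels name 1 dark control and give no time for it, so time back in the dark and time since the start of the experiment cannot be told apart. The design text calls the animals returned to the dark starved, and gives no length for it. In whole-animal RNA, more cells of a type and more RNA per cell cannot be told apart either.

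Depth was 38447289 to 50045371 reads per library, and a single read equals 0.020 to 0.026 CPM. Where no read was counted, the limit on the level would be 3 reads, or 0.060 to 0.078 CPM. The table gives contig numbers of an assembled transcriptome and no gene names, so no member can be given a name or role, and the labelled source was not checked against cell type markers. Contigs that share sequence can share reads. Intervals below are 95% intervals for counting error only, and they may be too narrow because reads carry no molecular identifiers.

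The set is small. Single comparisons with the 8-day library passed the 1.5-fold limit in 2.68% of the 21307 transcripts against the dark control, 1.99% against light, 1.07% against 1 day and 0.723% against 2 days. Being at least 1.5 times each other library was met by 12 transcripts, or 0.0563% of the 21307, and the limit on control to light, which 97.7% of all transcripts met, left 8, or 0.0375%. The same 1.5-fold limit was met by 376 transcripts in the dark control (1.76%), 18 in the light library (0.0845%), 7 in the 1-day library (0.0329%) and 5 in the 2-day library (0.0235%). In the opposite direction, 31 transcripts (0.145%) were lower by that factor in the 8-day dark-return library than in every other. These shares describe the rule in these libraries, and the 8 transcripts were chosen by it. Ratios of the 8-day library to each other library entered that choice, so those given below may be too high. Their counting intervals do not allow for the choice, and an interval above 1 is not a separate finding for these ratios.

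The 8 transcripts were of low to middling abundance. Their levels in the 8-day dark-return library ran from 4.69 to 28.3 CPM with a median of 8.41 CPM, against a median of 9.19 CPM over all 21307 transcripts in that library. In the light library their median was 2.48 CPM, against 8.77 CPM for all. Ranked by mean level over the 5 libraries, they lay between the percentiles 23.2 and 64.3 of the 21307. Summed over the 8, the level was 42.7 CPM in dark controls and 40.1 CPM in light, then 42.4, 53.5 and 104 CPM at 1, 2 and 8 dark days. The summed level was thus alike in the first 3 of these libraries, somewhat higher after 2 days, and highest after 8 days. The even sum in the first 3 hid opposite shifts among members. For the 3 with control below light it was 10.9, 17.9 and 15.3 CPM in dark controls, light and 1 dark day. For the other 5 it was 31.9, 22.1 and 27.1 CPM. Together the 8 took 0.0104% of the reads in the 8-day library.

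**Figure D1:**
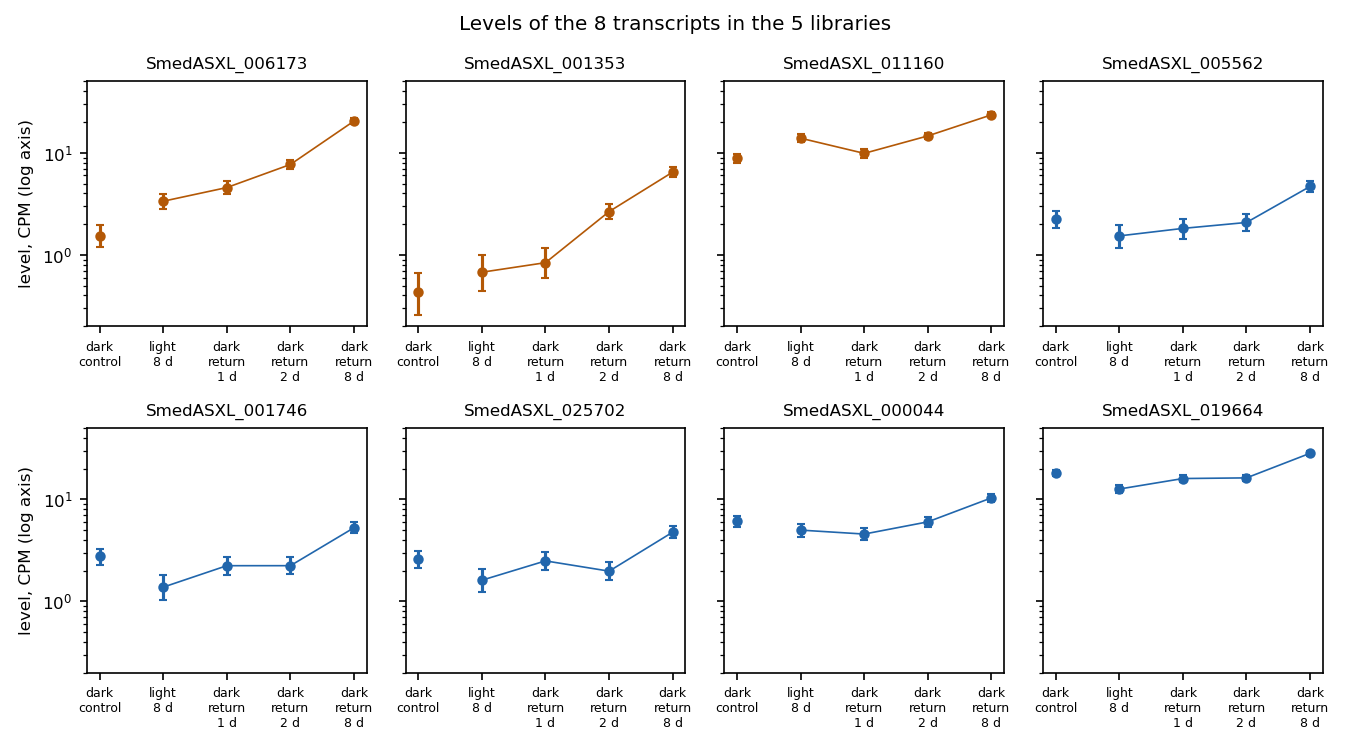
Level in CPM (log axis) of each of the 8 transcripts in the 5 libraries, with 95% exact Poisson intervals for counting error; 1 point is 1 pooled library, and the line joins the light and dark-return libraries. The 3 orange transcripts had a lower level in the dark control than in light and the 5 blue ones a higher level; every panel is highest after 8 days in the dark.

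The 8 fell into 2 patterns by which library came next after the 8-day one. In 3 of them the dark control was lower than the light library, and the 2-day library was the next highest. In the other 5 the dark control was higher than the light library, and the dark control was the next highest. The split was seen in the values that also chose the transcripts, and it is a description.

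The first pattern was clearest in SmedASXL_006173, which stood farthest above the other libraries. It had 1.54 CPM in dark controls and 3.36 CPM in light, then 4.57, 7.69 and 20.5 CPM at 1, 2 and 8 dark days. Each library in that order was higher than the one before it. The 8-day CPM + 1 value was 2.47 times that of the 2-day library, and on 984 and 385 reads the ratio of CPM was 2.66 (2.37 to 3.01). Against the dark control the ratio of CPM was 13.4, with an interval of 10.4 to 17.3. Its control-to-light ratio, inside the limits on the CPM + 1 scale at 0.582, was 0.458 in CPM (0.336 to 0.618), and with a pseudocount of 0.1 CPM it no longer met the rule.

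SmedASXL_001353 was the least abundant in the first 3 libraries, at 0.429 CPM (19 reads) in dark controls, 0.676 CPM (26 reads) in light and 0.839 CPM (36 reads) at 1 dark day. It stood at 2.66 CPM after 2 days (133 reads) and at 6.48 CPM after 8 days (311 reads). The counting intervals of the first 3 levels overlapped, and both later levels lay above them. Its ratio of CPM between 8 and 2 days was 2.44 (1.98 to 3.01), and between 8 days and the dark control 15.1 (9.51 to 25.4), on 19 reads in the control. Its control-to-light ratio of CPM of 0.634 had an interval of 0.332 to 1.19, which includes 1. It and SmedASXL_006173 were the only members at least 2-fold above each other library on the CPM + 1 scale.

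SmedASXL_011160 had an uneven course. It had 8.89 CPM in dark controls and 13.9 CPM in light, then 9.88, 14.6 and 23.6 CPM at 1, 2 and 8 dark days. The 1-day level thus lay near the dark control, and the 2-day level near the light library. The ratio of CPM between 1 day and light was 0.710 (0.624 to 0.808), and between 8 and 2 days 1.61 (1.46 to 1.77). Over the 3 transcripts of this pattern the log2 ratio of CPM + 1 between the 8-day library and the dark control was between 1.31 and 3.08.

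The second pattern held the 5 transcripts SmedASXL_005562, SmedASXL_001746, SmedASXL_025702, SmedASXL_000044 and SmedASXL_019664. Summed over the 5, the level was 31.9 CPM in dark controls and 22.1 CPM in light, then 27.1, 28.5 and 53.3 CPM at 1, 2 and 8 dark days. For each of the 5, the interval of the ratio of control to light lay above 1, though for SmedASXL_000044 its lower end was 1.01. The direction follows from how this pattern was defined, and the share of all transcripts with such an interval was not counted. Their log2 ratio of CPM + 1 between the 8-day library and the dark control was between 0.61 and 0.81, below that of every transcript of the first pattern. The dark control was the next highest library by definition here, so this contrast is not separate from the split.

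SmedASXL_019664 was the most abundant of the 8 in every library except light, where SmedASXL_011160 was higher. It had 18.2 CPM in dark controls and 12.6 CPM in light, then 16.0, 16.2 and 28.3 CPM at 1, 2 and 8 dark days. The 1- and 2-day levels were close to each other and lay between light and control. It was also the member nearest the limit, at 1.52 times the dark control on the CPM + 1 scale, with a ratio of CPM of 1.55 (1.42 to 1.70) on 1357 and 806 reads. It stood under the limit with either of the other library scalings tried, at log2 ratios of 0.55 (trimmed mean of M-values) and 0.57 (median of ratios).

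SmedASXL_000044 had 6.10 CPM in dark controls and 4.99 CPM in light, then 4.57, 6.01 and 10.3 CPM at 1, 2 and 8 dark days. Its 2-day level was 0.987 times the dark control in CPM (0.834 to 1.17). Its 8-day level was 1.70 times the dark control in CPM (1.46 to 1.97).

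SmedASXL_001746 stood at 2.75, 1.38, 2.24, 2.24 and 5.27 CPM in the dark control, the light library and after 1, 2 and 8 days. Its 2-day level was 1.00 times its 1-day level in CPM (0.755 to 1.33), and both lay above light. Its ratio of CPM between 8 days and the dark control was 1.91 (1.54 to 2.40).

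SmedASXL_025702 stood at 2.57, 1.61, 2.49, 1.98 and 4.77 CPM in the same order of libraries. It was the only member with a lower level after 2 days than after 1 day, by a ratio of CPM of 0.793 whose interval of 0.597 to 1.05 includes 1. SmedASXL_005562 stood at 2.23, 1.53, 1.82, 2.08 and 4.69 CPM, with small steps up to day 2 and a larger one after it. Between 8 days and the dark control, the ratio of CPM was 1.85 (1.47 to 2.34) for SmedASXL_025702 and 2.10 (1.65 to 2.68) for SmedASXL_005562.

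**Figure D2:**
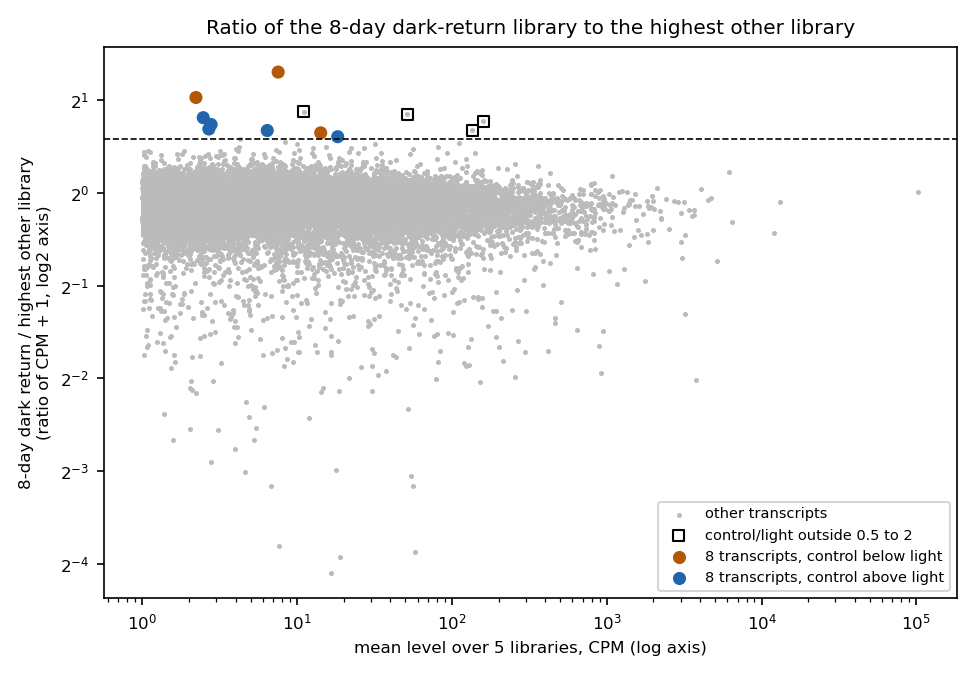
Ratio of the 8-day dark-return library to the highest of the other 4 libraries (CPM + 1, log2 axis) against mean level (CPM, log axis) for the 21307 transcripts; the dashed line is the limit of 1.5. The 8 transcripts lie in the left part of the plot, and 3 of the 4 open squares, which met the limit but not the one on control to light, lie at higher levels.

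Whether a rise had begun by day 2 was examined against the light library. After 2 days all 8 were above light, as were 51.6% of the 21307 transcripts. At least 1.2 times light on the CPM + 1 scale was reached by 5 of the 8 (62.5%), against 6.66% of all transcripts and 7.32% of the 8748 with a mean within the range of the 8. The count depends on the added 1, since 7 of the 8 reached 1.2 times light as a ratio of CPM, against 12% of all transcripts. This second count was added after the values had been seen. The median log2 ratio of CPM + 1 between 2 days and light was 0.31 for the 8 and 0.01 for all. The light library also entered the choice of the 8, and a low value there raises this ratio as well, so the share is a description.

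The 2-day difference from light was largest in SmedASXL_001353 and SmedASXL_006173, with ratios of CPM of 3.93 (2.57 to 6.24) and 2.29 (1.87 to 2.82). SmedASXL_001746 followed at 1.62 (1.16 to 2.30) and SmedASXL_019664 at 1.29 (1.15 to 1.44). These 4 both reached 1.2 times light on the CPM + 1 scale and had an interval of the CPM ratio above 1. How many of all transcripts met both conditions was not counted, so this describes the members only. SmedASXL_005562 reached 1.21 times on the CPM + 1 scale, and its ratio of CPM was 1.35 with an interval of 0.975 to 1.90. SmedASXL_000044 was at 1.17 times on the CPM + 1 scale, and its ratio of CPM was 1.204 with an interval of 1.002 to 1.45.

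SmedASXL_025702 and SmedASXL_011160 met neither condition. Their CPM + 1 values after 2 days were 1.14 and 1.05 times light, and their ratios of CPM were 1.23 (0.884 to 1.71) and 1.05 (0.940 to 1.18). A day-2 difference from light was therefore not detectable at this depth for SmedASXL_025702. After 1 day its ratio of CPM to light was 1.55 (1.12 to 2.15). SmedASXL_011160 had 733 and 535 reads in the 2-day and light libraries, so its interval is the narrower one. It includes 1 and ends below 1.2 times light.

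After 1 day, 6 of the 8 were above light, against 53.5% of all transcripts, and on the CPM + 1 scale 4 of the 8 were at least 1.2 times light, against 9.25%. These 4 were SmedASXL_006173, SmedASXL_001746, SmedASXL_025702 and SmedASXL_019664. After 2 days, 7 of the 8 were above their 1-day level, against 47.4% of all transcripts. By at least 1.2 times on the CPM + 1 scale this was so for 4 of the 8, against 2.55%, namely SmedASXL_001353, SmedASXL_006173, SmedASXL_011160 and SmedASXL_000044. The 3 transcripts of the first pattern were thus all higher after 2 days than after 1 day by that factor. The direction, though not the factor, follows from how that pattern was defined. In the second pattern SmedASXL_000044 alone was higher by that factor. An unbroken climb from light through 1, 2 and 8 days was seen in 5 of the 8 (62.5%), against 8.65% of all transcripts and 9.17% of those in the same range of means. The last step was fixed by the choice for the 8 but not for the other transcripts, so these shares were not measured alike. One of these 5, SmedASXL_001746, had a step of 0.00 between 1 and 2 days on the log2 scale.

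The 8-day difference from light was then divided into what was present by day 2 and what came later. On the log2(CPM + 1) scale the share present after 2 days ran from 9.60% in SmedASXL_011160 to 52.2% in SmedASXL_001353, with a median of 27.7%. In CPM the median share was 20.6%. After 1 day the median share on the log2 scale was 14.2%, and it was negative in SmedASXL_011160 and SmedASXL_000044, which were then below light. For 7 of the 8 the larger part of the difference from light thus lay between days 2 and 8, an interval that is also the longer one. The limit of 1.5 between the 2- and 8-day libraries caps the share by day 2, and the cap is lower where the difference from light is smaller. In SmedASXL_011160, SmedASXL_000044, SmedASXL_019664, SmedASXL_025702 and SmedASXL_005562 that difference was only 0.72 to 1.17 on the log2 scale. For these the choice itself placed the larger part after day 2, so the count of 7 is a description.

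**Figure D3:**
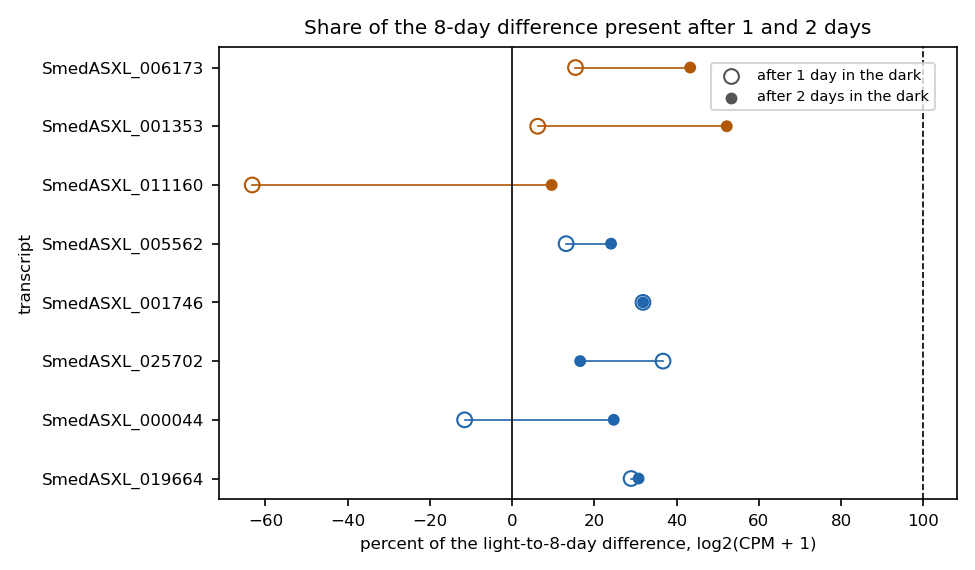
Share of the light-to-8-day difference in log2(CPM + 1) present after 1 day (open circles) and 2 days (small filled circles) for each transcript; 0 is the light library and the dashed line at 100 is the 8-day library. The filled circles lie between 9.60% and 52.2%, and the open circles of SmedASXL_011160 and SmedASXL_000044 lie below 0.

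Per day, the picture was less one-sided. The log2 gain per day from light to day 2 was 0.56 in SmedASXL_001353 and 0.50 in SmedASXL_006173, against 0.17 and 0.22 per day from day 2 to day 8. SmedASXL_001746 and SmedASXL_019664 also gained more per day before day 2, at 0.22 against 0.16 and 0.17 against 0.13. The other 4 gained less per day before day 2 than after it, with SmedASXL_011160 at 0.03 against 0.11 and SmedASXL_025702 at 0.09 against 0.16. The gap was small in SmedASXL_005562, at 0.140 against 0.148, and in SmedASXL_000044, at 0.113 against 0.115. The medians over the 8 were 0.15 before and 0.15 after. The fold limit between the 2- and 8-day libraries also sets a minimum for the later rate of every member. In SmedASXL_011160 the log2 difference between 8 days and light was only 0.72. That left no room for a faster rate before day 2, so its order of rates was fixed by the choice. The rates of the 8 are therefore a description.

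Transcripts close to the limits show how the boundary was drawn. The members nearest above the 1.5-fold limit were SmedASXL_019664, SmedASXL_011160 and SmedASXL_000044, at 1.52, 1.57 and 1.60 times the highest other library. Just below it, with all other criteria met, were SmedASXL_004939 at 1.498, SmedASXL_019356 at 1.47 and SmedASXL_005778 at 1.45. Between 1.3 and 1.5 there were 50 such transcripts.

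The 4 transcripts that met the 1.5-fold limit but not the one on control to light were more abundant in 3 cases, with 8-day levels of 98.6 CPM in SmedASXL_012058, 263 CPM in SmedASXL_018153 and 300.4 CPM in SmedASXL_011484. SmedASXL_019323, at 27.0 CPM after 8 days, missed the limit narrowly, with a control-to-light ratio of 0.497. It followed the course of SmedASXL_006173: across the 5 libraries the ratio of CPM between the 2 varied less than 1.5-fold, while from dark control to 8 days the CPM differed 13.4-fold in SmedASXL_006173 and 11.7-fold in SmedASXL_019323. Among the 28 pairs of members, the closest was SmedASXL_001746 with SmedASXL_025702, whose ratio varied 1.32-fold, and the most distant pair varied 9.72-fold.

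The dark control was the library that most limited the set. Without asking for 1.5 times the dark control, the other criteria were met by 59 transcripts. Thus 51 had an 8-day CPM + 1 value at least 1.5 times light, 1 day and 2 days but under 1.5 times the control. Some of these could still lie above the control, as SmedASXL_019356 did at 13.1 CPM against 8.65 CPM. Without asking it of the light library or of the 1-day library the number was 8 in each case, and without asking it of the 2-day library it was 12. Left out singly, the light and 1-day libraries thus changed nothing, while the dark control and the 2-day library each kept further transcripts out.

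**Figure D4:**
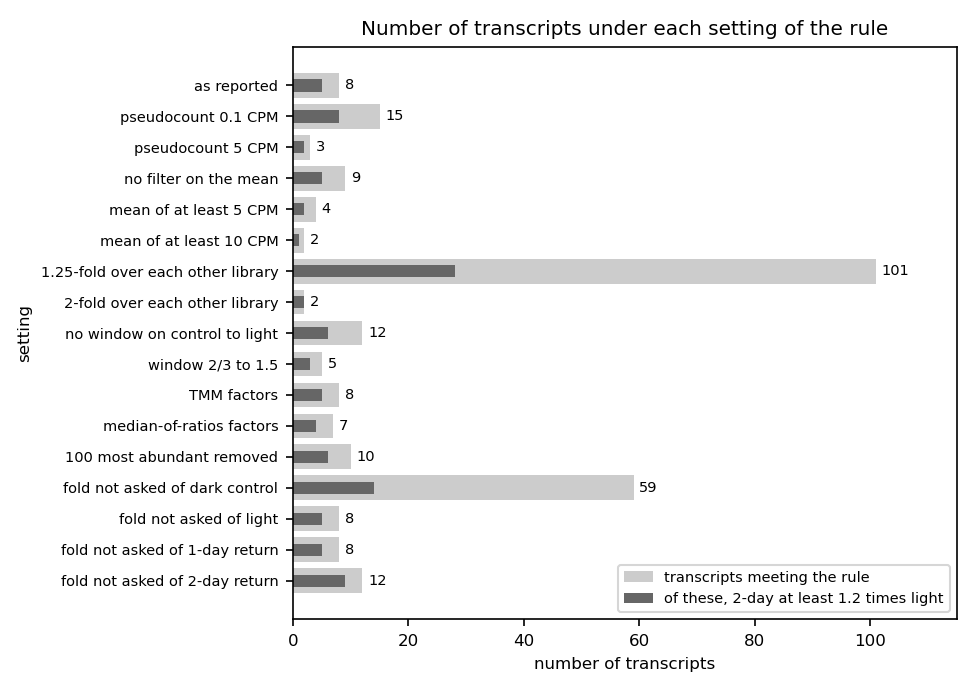
Number of transcripts that met the rule as reported and under each of 16 other settings (light bars, number beside them), and of these the number with a 2-day value at least 1.2 times light (dark bars). The number ran from 2 to 101, and was highest where the limit was lowered and where it was not asked of the dark control. Over all transcripts, the share with a 2-day value at least 1.2 times light was 6.66% as reported and 1.59% to 11.4% across settings.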

How the data were processed

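RNA of whole animals from 5 groups, 1 library each, was poly(A)-selected per the labels' protocols. Per the series' design text, 50-base single-end reads were trimmed by 15 bases at the 3' end and aligned with bowtie2 to the SmedASXL transcriptome. The submitters' processing notes name bcl2fastq 1.8.3 and Bowtie2 2.2.4. Strand use and the counting of reads that match several contigs are not given in the sources used here. The deposited signal is CPM + 1 per the file headers, and the deposited ratio column is the authors' quotient of dark control and light library.

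After 1 was subtracted, each library summed to 1000000 CPM and 100% of the values above 0 were whole reads to within 0.001 reads. Ratios of CPM carry exact conditional binomial intervals (Clopper-Pearson), and ratios of CPM + 1 understate the difference of low transcripts. With 1 library per group no test was made. All 8 members were described. The rule was tried on simulated counts that varied by counting error only, with changes planted in more abundant transcripts. That trial does not cover variation between animals or the members of low abundance. Alternatives changed the pseudocount, filter, fold, window, scaling (by median of ratios or by TMM, the trimmed mean of M-values), abundant transcripts and the libraries compared. Gene lists were not used because the table has no names. Members and settings were chosen with earlier results of these data known. Python 3.11.15, numpy 2.4.6, pandas 2.3.3, scipy 1.17.1 and matplotlib 3.10.9 were used.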

Additional observations from a re-analysis of the deposited data

Results flagged for a closer look

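SmedASXL_011160 is listed because its direction relative to the light library differed between times in the dark. Its log2 ratio of CPM + 1 to light was -0.45 after 1 day and 0.72 after 8 days. The counting intervals of both ratios of CPM exclude 1 (0.624 to 0.808 and 1.53 to 1.88). The 8-day direction was fixed by the choice, which asked for at least 1.5 times light, so only the 1-day direction was open. The difference between the times was not tested across animals, since each time is 1 library.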

How the results depend on the processing

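The number of transcripts depended on the settings. It was 15 with a pseudocount of 0.1 CPM (7 of the 8 among them, without SmedASXL_006173) and 3 with 5 CPM (1 of the 8). It was 4 and 2 with a mean of at least 5 and 10 CPM, 101 with the lower limit on the fold and 2 with a limit of 2-fold, 5 with a control-to-light window of 2/3 to 1.5, and 59 when the limit was not asked of the dark control. In the other settings it was 7 to 12, with TMM factors it was 8 and with median-of-ratios factors 7, and SmedASXL_019664 was the member lost in both. The share at least 1.2 times light by day 2, 62.5% as reported, was 100% at the 2-fold limit (2 of 2), 27.7% of the 101 at the lower limit and 23.7% of the 59 when the dark control was left out of the limit. Over all transcripts it was 6.66% in each of these settings, 11.4% with a pseudocount of 0.1 CPM and 1.59% with 5 CPM. The share higher at every step, also 62.5%, was 100% at the 2-fold limit, 41.6% at the lower limit and 33.3% with a pseudocount of 0.1 CPM (5 of 15). Over all transcripts this share was 8.65% in each of these settings. As ratios of CPM with nothing added, an alternative chosen after seeing the data, 87.5% of the 8 were at least 1.2 times light by day 2. Calling a difference at 1.1 or 1.5 times light gave 7 and 2 of the 8 in place of 5, with 19.2% and 0.601% over all transcripts. For single members, the log2 ratio to the highest other library stayed positive under both pseudocounts and both scalings, but this sign was fixed beforehand. An added constant cannot reverse it, and scaling factors of 0.976 to 1.03 are too close to 1 to undo a 1.5-fold ratio. Only the size of the log2 ratio was open. With 5 CPM added that ratio ran from 0.37 to 1.01, against 0.61 to 1.31 as reported. No paired analysis was possible because each group has 1 library. Leaving out replicates was not possible for the same reason. Depth limits the day-2 comparison most for the members with the fewest reads, such as SmedASXL_025702 with 62 and 99.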
